A study of Homo sapiens with 2 samples.

Results

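Sites where SOX2 was crosslinked to 5 long noncoding RNAs were examined: MALAT1, NEAT1, TUG1, NORAD and OIP5-AS1. A site was counted for an RNA when it overlapped a fixed interval of the human build hg19 on the strand of that RNA. The intervals were chr11:65265001-65274000 on the plus strand for MALAT1, chr11:65190001-65213000 plus for NEAT1, chr22:31365001-31376000 plus for TUG1, chr20:34633001-34639000 minus for NORAD and chr15:41576001-41602000 plus for OIP5-AS1. They held 18 of the 16964 sites of replicate 1 and 101 of the 55830 sites of replicate 2. The interval edges are in whole kb and no gene model of build hg19 was used, so whether a site lay in an exon or an intron was not determined.

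The sites came from PAR-CLIP, in which cells take up 4-thiouridine, ultraviolet light links the labelled RNA to the proteins touching it, and the RNA brought down with 1 protein is sequenced. Both libraries belonged to a single group: HEK293T, a human embryonic kidney line, transiently expressing FLAG-tagged SOX2 from a plasmid, given 0.2 mM 4-thiouridine over 16 hours and then 365 nm light at a dose of 0.4 J/cm2. RNA was trimmed on the way with RNase T1, a nuclease that cuts after guanosine, and recovered with FLAG antibody. SOX2 is a transcription factor of pluripotent and neural progenitor cells, here present through transfection, and the wider study asked about a stretch of the protein thought to bind RNA. The labels call the libraries independent experiments, and no control library or RNA abundance measurement was used here, so a count of sites mixes binding, background and the amount of each RNA; their parts cannot be told apart.

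Long noncoding RNAs act without being translated, and these 5 differ in where they work. MALAT1 is an abundant, nucleus-retained RNA found in nuclear speckles, the bodies that store splicing factors. NEAT1 is the architectural RNA of paraspeckles and has a short and a long isoform that begin at the same position; the long one builds the paraspeckle. TUG1 is found in nucleus and cytoplasm. NORAD is a cytoplasmic RNA that sequesters PUMILIO proteins, and OIP5-AS1, also called Cyrano, is a largely cytoplasmic RNA known for directing the decay of a microRNA.

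Every listed site in these intervals lay on the strand of the named RNA. The opposite strand of the 5 intervals held 0 sites in replicate 1 and 0 in replicate 2. Same-strand flanks of equal length on both sides of each interval held 3 sites in replicate 1 and 7 in replicate 2, against 18 and 101 inside. MALAT1, TUG1 and NORAD had 0 flanking sites in both lists. On the plus strand of the 52 kb between NEAT1 and MALAT1 there were 0 sites in either list. The nearest same-strand site outside TUG1 was 120.9 kb beyond the interval in replicate 1 and 116.4 kb beyond it in replicate 2. OIP5-AS1 had the closest outside site, 3.887 kb upstream of its interval in replicate 2, with a score of 21. In replicate 2, OIP5-AS1 had 5 sites inside its interval, 3 in the upstream flank and 1 in the downstream flank.

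**Figure D1:**
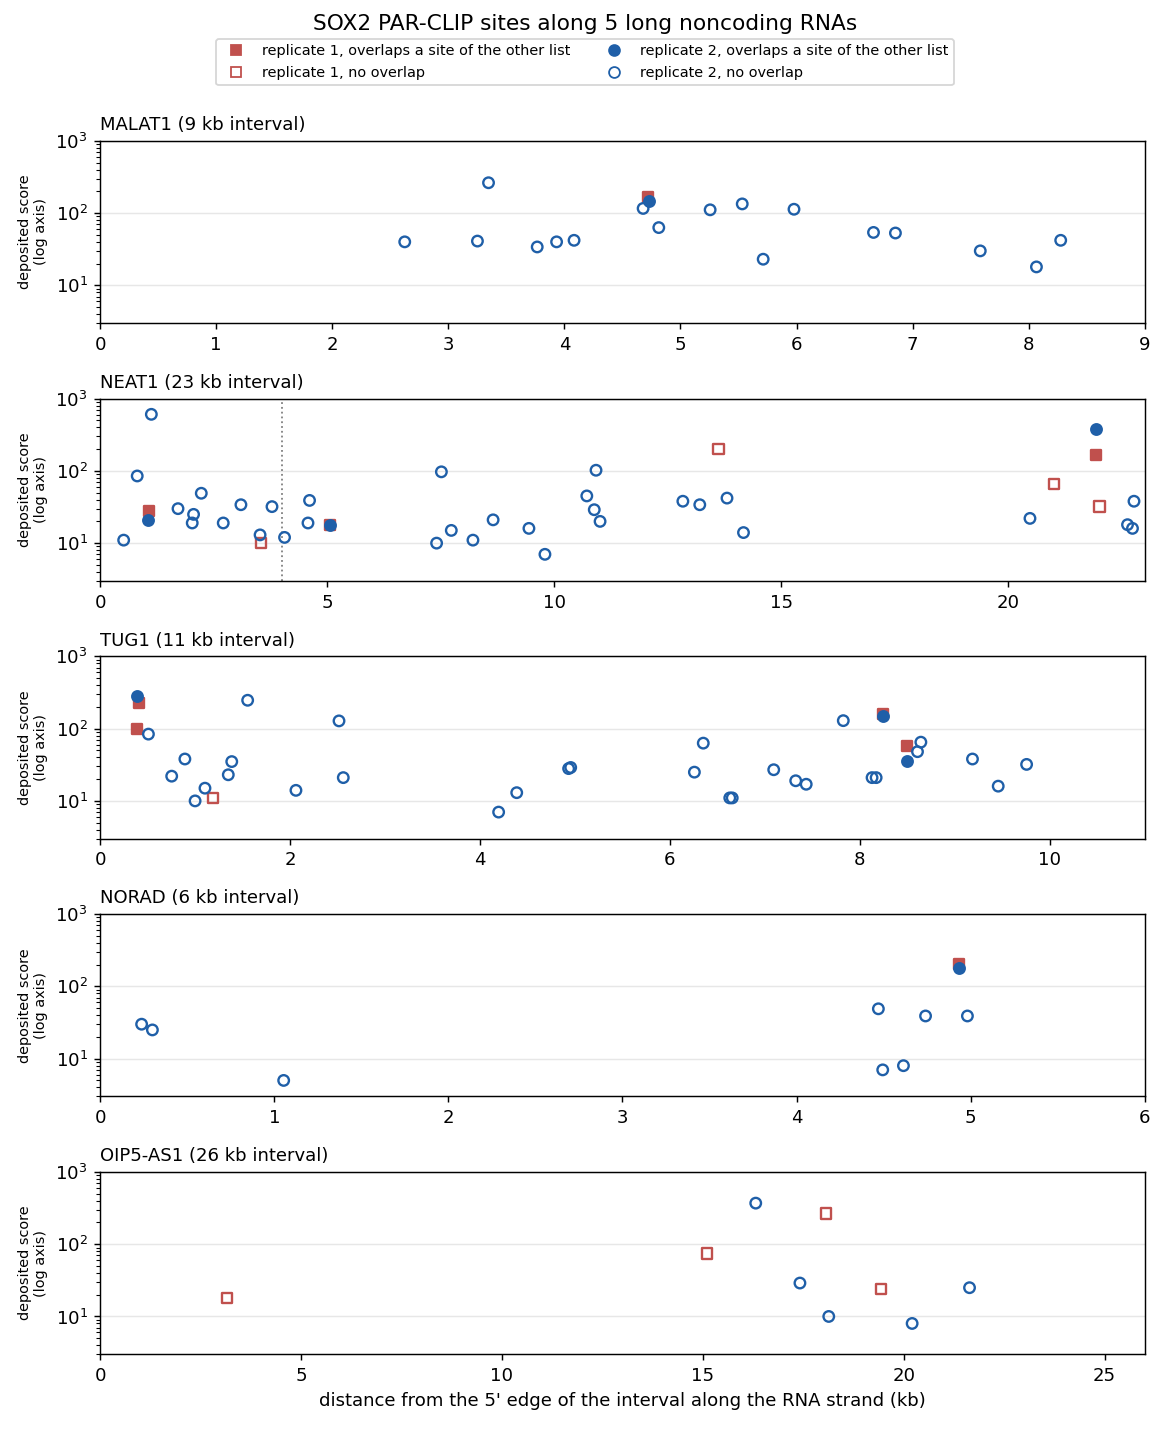
Each point is 1 site, placed by its distance in kb from the 5′ edge of the interval (x axis) and its deposited score (y axis, log scale), with squares for replicate 1 and circles for replicate 2. Filled points overlap a site of the other list; the dotted line in NEAT1 marks 4 kb. TUG1 has filled points near its 5′ edge and between 8.2 and 8.5 kb, NORAD has 1 pair at 4.93 kb, and OIP5-AS1 has none.

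The number of sites differed strongly between the RNAs, and their order was not the same in both experiments. In replicate 2, TUG1 was the most densely covered, with 33 sites or 3.0 sites per kb of interval, followed by MALAT1 with 18 sites (2.0 per kb), NEAT1 with 36 sites (1.57 per kb), NORAD with 9 sites (1.5 per kb) and OIP5-AS1 with 5 sites (0.192 per kb). In replicate 1, TUG1 again led with 5 sites (0.455 per kb). NEAT1 followed with 7 sites (0.304 per kb), while NORAD with 1 site (0.167 per kb), OIP5-AS1 with 4 (0.154 per kb) and MALAT1 with 1 (0.111 per kb) lay close together. TUG1 was thus first in both full lists, and MALAT1 was second in one and last in the other. The lead of TUG1 in replicate 1 depended on the interval edges. With 1 kb taken off both ends of each interval, TUG1 held 3 replicate 1 sites and NEAT1 7, and their sites per kb were then level. When only the 16964 strongest sites of replicate 2 were kept, MALAT1 held 15, NEAT1 14, TUG1 14, NORAD 4 and OIP5-AS1 1, so MALAT1 then had the most sites per kb. With 1 to 7 sites per RNA in replicate 1, neighbours in its order are separated by few sites and were not told apart.

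The wide interval of OIP5-AS1 holds introns, which changes its density. In GENCODE release 29 (GRCh38, used here for lengths and base composition only), the longest OIP5-AS1 transcript measures 8829 nt, 33.96% of the interval, whereas the longest NEAT1 transcript (22743 nt) fills 98.9% of its interval and the longest MALAT1 transcript (8708 nt) 96.8%. Per kb of longest transcript, OIP5-AS1 had 0.453 sites in replicate 1 and 0.566 in replicate 2, TUG1 (7469 nt) had 0.669 and 4.42, NEAT1 had 0.308 and 1.58, NORAD (5339 nt) had 0.187 and 1.69, and MALAT1 had 0.115 and 2.07. On this scale TUG1 still led in both lists, and OIP5-AS1 was second in replicate 1 and last in replicate 2. These densities divide all sites of the interval, any intronic ones included, by the length of the transcript alone. They may therefore be too high where the transcript fills less of its interval. The longest transcript fills 67.9% of the interval in TUG1 and 89.0% in NORAD. Uridine, the base that carries the crosslinking label, made up similar shares of the longest transcripts: 29.3% in MALAT1, 29.6% in TUG1, 30.4% in NORAD, 31.6% in OIP5-AS1 and 31.7% in NEAT1. Guanosine, after which RNase T1 cuts, ranged from 20.04% in OIP5-AS1 to 24.2% in NORAD. The part of base composition in the numbers of sites was not tested.

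Against the genome as a whole, TUG1 and NEAT1 stood near the top in replicate 2. Each chromosome strand was cut into tiles of the same length as the interval, without regard to genes, and the tiles with at least 1 site were ranked by their number of sites. Of 24553 such 11 kb tiles in replicate 2, 8 held as many sites as TUG1 or more, and of 19320 tiles of 23 kb, 8 held as many as NEAT1 or more. For MALAT1 the number was 48 of 26051 tiles of 9 kb, and for NORAD 422 of 29123 tiles of 6 kb. OIP5-AS1 was ordinary by this measure, with 3478 of 18500 tiles of 26 kb (18.8%) at or above it. In replicate 1, 141 of 12759 tiles matched or passed TUG1 (1.11%), 74 of 11380 matched or passed NEAT1 (0.65%) and 593 of 11152 matched or passed OIP5-AS1 (5.32%). MALAT1 and NORAD, with 1 site each, were at the minimum of that list. Tile borders can split a gene, whereas each interval was laid around its RNA, which can raise the rank of the members. Tiles also counted sites by midpoint and intervals by any overlap. The rank describes the density of listed sites, and how far RNA abundance enters it was not tested.

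Replicate 2 listed 3.29-fold more sites than replicate 1 over the whole genome. In the 5 RNAs together the ratio was 5.61 (exact 95% interval over sites 3.38 to 9.85). Singly, the ratio was 18 for MALAT1 (2.84 to 750), 9.0 for NORAD (1.25 to 394), 6.6 for TUG1 (2.56 to 21.7), 5.14 for NEAT1 (2.26 to 13.7) and 1.25 for OIP5-AS1 (0.269 to 6.30). Each of these 5 intervals contains the ratio of the whole lists, so for no single RNA did the departure from that ratio exceed the counting error. The combined interval lies just above 3.29, but sites of 1 RNA are not independent and such intervals are too narrow. Over the lists, the 5 RNAs had 59.5 ± 58.7 sites (SD, n = 2).

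**Figure D2:**
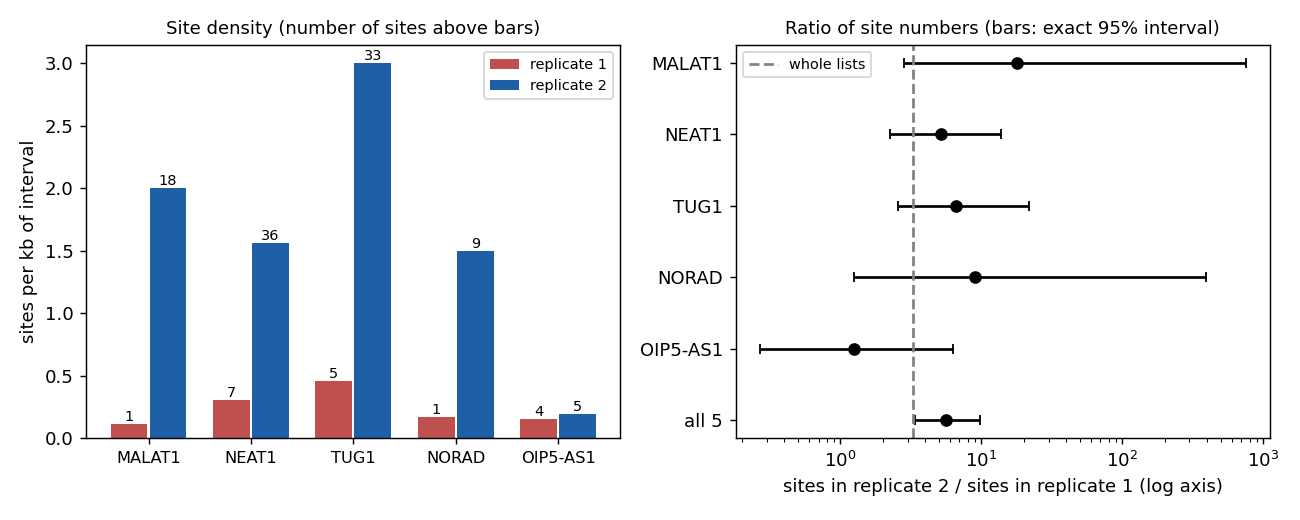
Left, bars give sites per kb of interval for each RNA in replicate 1 and replicate 2, with the number of sites above each bar. Right, points give the ratio of site numbers, replicate 2 over replicate 1, on a log axis with exact 95% intervals, and the dashed line the ratio of the whole lists, 3.29; the interval of each single RNA crosses it and that of all 5 does not.

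The sites in these RNAs had moderate scores. The score is a whole number deposited for each site that looks like a number of reads; no source used here defines it, so read depth is unknown. The highest was 606 in NEAT1 in replicate 2 (rank 456 of the list), and the highest in replicate 1 was 264 in OIP5-AS1 (rank 965). None reached 1000, a score that 268 sites of replicate 1 and 274 of replicate 2 had. The 5 RNAs together took 0.0341% of all score in replicate 1 and 0.114% in replicate 2, or 0.0741% ± 0.0566 on average (SD, n = 2). With the 10 strongest sites of each list left out, the shares were 0.0846% and 0.174%, or 0.13% ± 0.0635 on average (SD, n = 2). Most of their sites were nevertheless above the middle of the lists: 13 of 18 in replicate 1 and 74 of 101 in replicate 2 scored at or above the list median of 26 and 19, against 51.4% and 52.1% of all sites. MALAT1 stood out in replicate 2, where 17 of its 18 sites were at or above the median. Scores of at least 100 were held by 7 of 18 and 16 of 101 sites, against 14.8% and 7.34% of all sites.

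**Figure D3:**
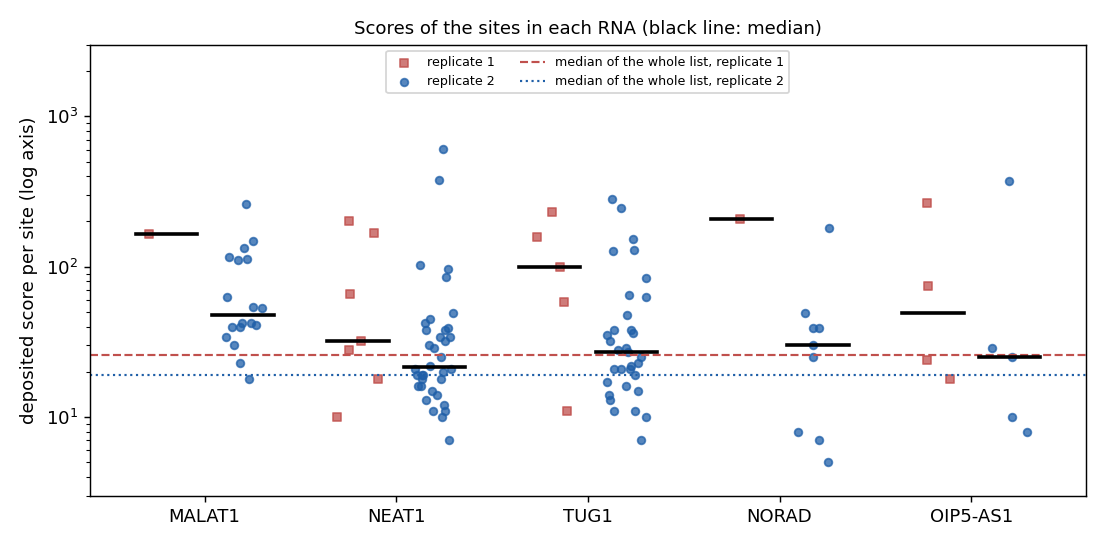
Points are the deposited scores of single sites on a log axis, by RNA and replicate, black lines their medians, and horizontal lines the medians of the whole lists (26 in replicate 1, 19 in replicate 2). In replicate 2 the medians run from 21.5 in NEAT1 to 47.5 in MALAT1, all above 19.

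The experiments were then compared site by site. Sites of the 2 lists that lay on the same strand and overlapped by 1 nt or more were called shared. Of the 18 sites of replicate 1, 9 were shared (50.0%, Wilson 95% interval 29.03 to 71.0), against 21.3% of all its sites. Of the 101 sites of replicate 2, 8 were shared (7.92%, 4.07 to 14.9), close to the 6.5% of all its sites. Because sites of 1 RNA are not independent, these intervals are too narrow. The sites were also compared by score class, and the part of score in these shares was not tested. Among sites scoring at least 100, 5 of 7 were shared in replicate 1 (49.1% of all such sites) and 5 of 16 in replicate 2 (28.9%). Among sites scoring under 20, 1 of 4 was shared in replicate 1 (7.35%) and 1 of 31 in replicate 2 (1.95%). The intervals over these few sites, 35.9 to 91.8% for the 7 strong sites of replicate 1, include the list share.

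**Figure D4:**
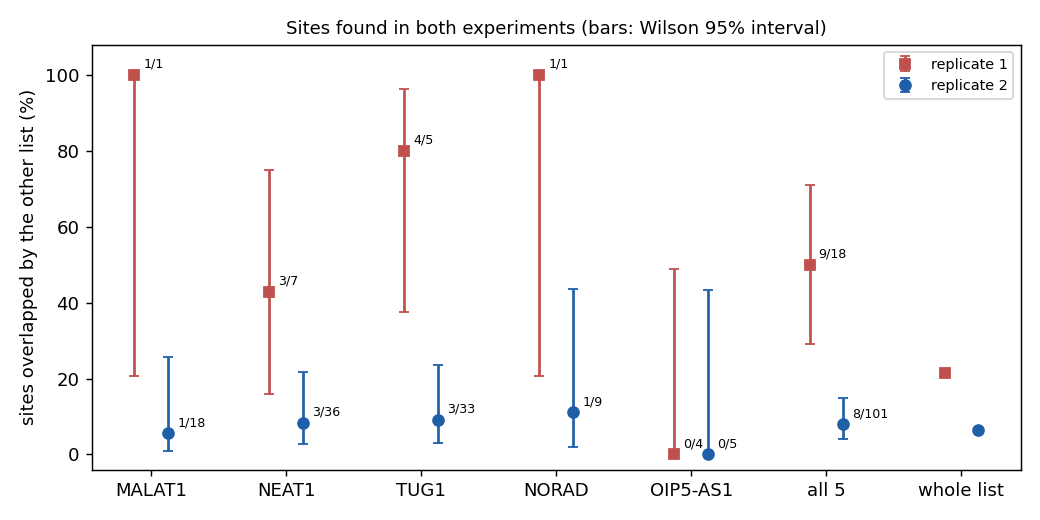
Points give the percentage of sites overlapped by a site of the other list, with Wilson 95% intervals and the numbers of sites, for each RNA, for all 5 and for the whole list. In replicate 1 the 5 RNAs are at 50.0% and the list at 21.3%; in replicate 2 they are at 7.92% and 6.5%.

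The 9 overlapping pairs had log2 ratios of replicate 2 to replicate 1 score from -0.69 to 1.52 with a median of -0.06, and 7 of the 9 were within 2-fold. Over all 3621 shared sites of replicate 1 the median was -0.21 and 55.2% were within 2-fold. In 4 of the 9 pairs both edges differed by at most 4 nt, which holds for 44.1% of all shared sites of replicate 1; in the other 5 pairs an edge was further off, by up to 37 nt. The ratio of 1 pair to another has no replicate check, as each library gives 1 value per site.

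MALAT1 had a single site in replicate 1 and 18 in replicate 2. The replicate 1 site, chr11:65269710-65269732, scored 165, and its partner at chr11:65269717-65269734 scored 149 in replicate 2. The lone site thus matched one of the stronger sites of the other list. The highest MALAT1 site of replicate 2 was elsewhere, at chr11:65268337-65268356, with a score of 263. It lay 1374.5 nt from the replicate 1 site, midpoint to midpoint, and had no partner. The 18 sites of replicate 2 were spread without a large break, the widest gap being 714 nt, from 2.62 to 8.28 kb of the interval. Its first 2.6 kb was without sites, a stretch described after its values were seen. With the interval cut into 3 equal parts from the 5′ end, the sites of replicate 2 numbered 1, 12 and 5, so the middle part carried most of them.

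NEAT1 had sites along much of its length, and the widest empty stretch was a different one in each list. The 7 sites of replicate 1 scored from 10 to 202, and the 36 of replicate 2 from 7 to 606. Of these, 3 in each list formed pairs. The strongest pair lay near the 3′ end, at chr11:65211921-65211938 with a score of 167 in replicate 1 and at chr11:65211925-65211939 with 380 in replicate 2. It falls in the part of NEAT1 that belongs to the long isoform. A pair near the 5′ end, chr11:65191062-65191075 and chr11:65191035-65191069, scored 28 and 21 and shared 8 nt. The third pair, at chr11:65195058-65195074 in replicate 1 and 1 nt further on in replicate 2, scored 18 in both.

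The highest NEAT1 site of each list had no partner. In replicate 2 it was chr11:65191118-65191136, with a score of 606, whose midpoint lay 58.5 nt from that of the replicate 1 site scoring 28. In replicate 1 it was chr11:65203603-65203620, with a score of 202, and the closest replicate 2 site lay 191 nt away with a score of 42. The experiments thus differed in which NEAT1 position was strongest, while both had sites near these positions. Every one of the 7 replicate 1 sites had a replicate 2 site within 1 kb, which holds for 53.1% of all replicate 1 sites.

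The first 4 kb of the NEAT1 interval, which is about the extent of the short isoform and so common to both, was compared with the remaining 19 kb of the long isoform. In replicate 2 this first part held 12 sites (3.0 per kb) and the rest 24 (1.26 per kb), a ratio of densities of 2.38 (95% interval over sites 1.203 to 4.69). In replicate 1 the numbers were 2 (0.5 per kb) and 5 (0.263 per kb), a ratio of 1.9 (0.426 to 8.48). The ratio was above 1 in both lists, but in replicate 1 its interval included 1. Both intervals count the sites of this 1 RNA as independent, which they are not, and are too narrow. The 2 lists differed in score: the first 4 kb carried 47.0% of the NEAT1 score in replicate 2, mostly through the site of 606, and 7.27% in replicate 1. Within the long part, replicate 2 had 0 sites over 6287 nt, chr11:65204174-65210460. This stretch was also empty in replicate 1, whose sites on either side ended at 65203620 and began at 65210997. With only 7 NEAT1 sites, replicate 1 had other long gaps as well. Its widest was 8528 nt, chr11:65195075-65203602, and replicate 2 had sites there.

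In TUG1, 4 of the 5 sites of replicate 1 were shared, and these carried 98.0% of its score there; in replicate 2, 3 of 33 sites were shared, with 27.3% of the score. The site of the highest score was the same in both experiments. Near the 5′ edge of the interval, chr22:31365405-31365418 scored 230 in replicate 1 and lay inside chr22:31365368-31365418, which scored 284 in replicate 2. A further replicate 1 site, chr22:31365384-31365399 with a score of 99, lay inside that same 51 nt site. Because 2 replicate 1 sites fell in 1 replicate 2 site, TUG1 had 4 shared sites in one list and 3 in the other.

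The other TUG1 pairs lay more than 7 kb downstream of the first. The site chr22:31373233-31373246 scored 158 in replicate 1, and its partner chr22:31373234-31373258 scored 152 in replicate 2. The site chr22:31373490-31373505 scored 58, and its partner scored 36. The unshared replicate 1 site was also its weakest, with a score of 11. Replicate 2 filled the stretch between the first pairs and these with further sites. Its widest gap was 1613 nt, against 7036 nt in replicate 1. In replicate 2 the 3 equal parts from the 5′ end held 12, 10 and 11 sites. Among them was a strong unpaired site at chr22:31366547-31366560 with a score of 247.

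NORAD had 1 site in replicate 1, and it coincided with the strongest NORAD site of replicate 2. The site chr20:34634056-34634079 scored 207 in replicate 1, and chr20:34634058-34634079 scored 181 in replicate 2. These sites overlapped by 22 nt and had the same end coordinate, which is the upstream edge on the minus strand. The remaining 8 sites of replicate 2 scored from 5 to 49. Of the 9 sites of replicate 2, 6 lay between 4.4 and 5 kb from the 5′ edge and the other 3 at 0.238, 0.3 and 1.05 kb. Between the groups were 3400 nt without a site, chr20:34634540-34637939. The replicate 1 list had 0 sites there, but with 1 NORAD site in all it could hardly show otherwise. The limits of 4.4 and 5 kb were chosen after the positions were seen.

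OIP5-AS1 differed from the other members in having 0 shared sites, 0 of 4 in replicate 1 (Wilson 95% interval 0 to 49.0%) and 0 of 5 in replicate 2 (0 to 43.4%). Both intervals include the list shares of 21.3% and 6.5%, so with so few sites this was not distinguishable from the background. Its scores in replicate 1 were 18, 74, 264 and 24 from the 5′ to the 3′ end, and in replicate 2 they were 370, 29, 10, 8 and 25. In each list 1 site dominated: chr15:41594058-41594079 took 69.5% of the OIP5-AS1 score in replicate 1 and chr15:41592310-41592326 took 83.7% in replicate 2. The nearest replicate 2 site to the former scored 10 and lay 67 nt away. Although no sites overlapped, 3 of 4 sites in replicate 1 and 5 of 5 in replicate 2 lay between 15 and 22 kb from the 5′ edge, limits chosen after the positions were seen. The remaining site of replicate 1 lay alone at 3.16 kb.

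The lists were also compared at the scale of 1 kb. Such a window finds at least as many neighbours as an overlap of 1 nt by construction. Shares at this scale are therefore set against those of the whole lists only. Of the 18 sites of replicate 1, 16 (88.9%, Wilson 95% interval 67.2 to 96.9) had a replicate 2 site within 1 kb, against 53.1% of all its sites, and 63 of the 101 sites of replicate 2 (62.4%, 52.6 to 71.2) had a replicate 1 site within 1 kb, against 29.3%. The 2 replicate 1 sites without such a neighbour were both in OIP5-AS1. Cut into 75 bins of 1 kb, the intervals had replicate 1 sites in 15 bins and replicate 2 sites in 40; 12 bins held sites of both, and the 3 with replicate 1 sites only were all in OIP5-AS1. Neighbours from the same list were frequent as well: 97 of 101 replicate 2 sites had another site of that list within 1 kb, against 52.8% of all its sites, and 8 of 18 in replicate 1, against 21.3%. Where an RNA holds many sites, some neighbours within 1 kb follow from the density alone.

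The sites were as short as elsewhere in the lists. In replicate 1 their lengths had a median of 16.5 nt and in replicate 2 one of 17 nt, against 16 and 17 nt over all sites. The longest, 51 nt, was the replicate 2 site at the 5′ edge of TUG1.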

How the data were processed

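The authors deposited 1 list of sites per library, with 6 columns and no header (chromosome, start, end, name, score, strand). Each deposited score is whole, 5 or higher, with no stated normalization. Tools named in the submitters' processing notes are bcl2fastq and Bowtie 1.1.2, and the build is hg19; no source used here names the site caller or its thresholds. Lists held 16964 and 55830 sites with score sums of 5365592 and 5192778; read depth is unknown.

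Sites overlapping each interval on its strand were taken in Python 3.11.15 with pandas 2.3.3. Positions are counted from 1, and places along an RNA use site midpoints. Shares have Wilson 95% intervals, from which those of the NEAT1 density ratio were derived. Ratios of replicate 2 to replicate 1 have exact (Clopper-Pearson) 95% intervals. All were computed with scipy 1.17.1 and cover counting error over sites only. Since sites of 1 RNA are not independent, the intervals over member sites are too narrow. Overlap counting was checked on simulated lists. With 2 libraries of 1 group and no control, no p-value was computed. The members, intervals and summaries were chosen with earlier results of these data known. Named sites were the highest of each list per RNA and up to 3 overlapping pairs per RNA with the best mean rank of score; any other site was picked with its value in view. Transcript lengths and base composition came from GENCODE release 29 on GRCh38, matched by symbol (5 of 5), without coordinates. No genome of build hg19 was used, so site sequences are not shown.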

Additional observations from a re-analysis of the deposited data

How the results depend on the processing

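Of 82 values computed under alternatives, 71 stayed close to the reported one, 11 moved and 0 reversed. Close means within 1.5 times for a count and otherwise within its interval or 1 SD. Part of the 71 could not have moved. Limiting replicate 2 leaves the replicate 1 counts as they are, and no filter changes an opposite strand with 0 sites. With 2 lists, each lies within 1 SD of their mean, and a count cannot reverse. The tally therefore says little about how firm the results are. With replicate 2 limited to as many highest-scoring sites as replicate 1 has, the 5 RNAs held 48 sites there in place of 101, since fewer sites enter. The number of sites averaged over the lists ranged from 18 to 101 when each replicate was left out, and the same-strand flank sites from 3 to 7. Leaving out a replicate gives 0 for the opposite strand either way, and no overlap can be computed from 1 list. The shared percentage of replicate 1 ranged from 33.3% with 50% of both sites required (16.5% of the whole list) to 61.1% with gaps of up to 50 nt (31.5%). With replicate 2 limited to its highest scores it was 38.9% (20.3 to 61.4), against 15.1% of the list. The NEAT1 density ratio in replicate 1 was 1.44 with the split at 5 kb and 1.19 for scores of at least 20, and in replicate 2 it was 2.57 and 2.92. For single RNAs, a minimum score of 20 left NEAT1 21 and OIP5-AS1 3 sites in replicate 2, and 1 kb off both ends left TUG1 3 in replicate 1. With replicate 2 limited to its highest scores, the members held fewer sites: MALAT1 15, NEAT1 14, TUG1 14, NORAD 4 and OIP5-AS1 1, fewer sites entering by construction; MALAT1 then had the most sites per kb. No paired analysis was possible because both libraries belong to 1 group. The unknown depth, the missing control and the 18 sites of replicate 1 limit every comparison between single RNAs.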

Other observations

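Site names carry a running number that rises along each chromosome, and no source used here says what it counts. The last number was 248010 in replicate 1 and 235517 in replicate 2, so the numbering reached a similar height although the lists differ 3.29-fold in sites. Listed sites used 16741 of these numbers (6.75%) in replicate 1 and 52377 (22.2%) in replicate 2. From the first to the last listed site of TUG1 the number advanced over 42 values in replicate 1, of which 4 carried a listed site, and over 53 in replicate 2, of which 27 did. For NEAT1 these were 58 values with 7 used and 110 with 31 used. For OIP5-AS1 they were 16 with 4 used and 17 with 5 used. MALAT1 and NORAD, with 1 site each in replicate 1, spanned 37 and 18 values in replicate 2, of which 17 and 6 carried a site. The spans depend on the outermost listed sites of each RNA and are given as values only.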
